A study of Mus musculus with 3 samples.

Results

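The genes of the oligodendrocyte lineage and of myelin were examined in prelimbic cortex (PrL) tissue of stressed mice. They are 41 genes, chosen by name as genes of oligodendrocyte precursors, newly formed oligodendrocytes and myelinating oligodendrocytes, and all 41 were found among the 54532 genes of the deposited table. RNA sequencing was performed on 3 libraries, 1 per group, from male C57BL/6J mice of 6 to 8 weeks at the start, each injected in both hemispheres with a recombinant AAV/9 vector. The CUMS vehicle group received rAAV-hSyn-bGH-polyA-CMV-EGFP, the CUMS oe-circ group rAAV-hSyn-circFKBP8-bGH-polyA-CMV-EGFP, which overexpresses the circular RNA circFKBP8(5S,6), and the CUMS oe-pep group an rAAV-hSyn vector for peptide-3×Flag followed by P2A-EGFP with an hGH-polyA, which overexpresses its encoded protein cFKBP8. All groups were then stressed for 5 weeks by CUMS, chronic unpredictable mild stress, a changing series of mild stressors, so unstressed tissue is not part of these comparisons. The hSyn promoter (human synapsin) drives expression in neurons, whereas the genes described here are those of glial cells. EGFP is driven by CMV in the vehicle and oe-circ vectors but follows the peptide in the oe-pep vector, so the vectors differ in more than the overexpressed product. How many mice each library holds is not given in the sources used here.

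Oligodendrocytes wrap axons of the central nervous system in myelin, a stack of lipid-rich membrane that speeds conduction. They arise from precursors that carry the PDGF receptor alpha and the proteoglycan NG2 and that persist in the adult cortex. Precursors that leave the cell cycle pass through a short premyelinating stage, marked by Gpr17 and Enpp6, before they switch on the genes of the sheath. SOX10 and MYRF are the transcription factors that activate many myelin genes.

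The libraries held 18084058 reads in genes for CUMS vehicle, 14413544 for CUMS oe-circ and 16410635 for CUMS oe-pep. The deposited unit was FPKM, fragments per kilobase of gene length scaled to the reads of the library, from which whole read numbers could be computed back. All 41 genes passed the limit of 0.1 FPKM on average over the libraries, as did 20203 genes of the table. A gene counts as more than 25% higher or more than 20% lower past the same fold in either direction on the log2(FPKM + 0.1) scale, and larger thresholds are given as folds on that scale, while the ratios below are ratios of FPKM with exact 95% intervals from the reads. These intervals cover counting error only and compare 1 library with another. With 1 library per group no difference between groups could be tested, and no spread between animals was measured. In tissue RNA, fewer cells of a type and less RNA per cell cannot be told apart. Levels are given in the order CUMS vehicle, CUMS oe-circ, CUMS oe-pep.

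Markers of other cells and regions also differed between the libraries. The genes of cortical excitatory neurons, which the labelled tissue should hold, and those of oligodendrocytes were detected in every library. Against the vehicle library, in oe-circ all 10 striatal neuron genes were more than 2-fold lower (summed FPKM 641, 204 and 524), and 5 of 10 genes of cortical excitatory neurons were more than 25% higher and 0 lower (summed FPKM 1639, 1986 and 1720). In oe-pep 8 of 9 measured ependyma genes were more than 25% higher (summed FPKM 11.4, 13.003 and 23.9), with Mia listed at 0 reads in both overexpression libraries. Their part in the myelin values was not tested. Astrocyte genes had a median log2 fold change of 0.03 in oe-circ and 0.11 in oe-pep. The medians of microglia genes were −0.12 and −0.16, of endothelial genes 0.00 and −0.00, and of interneuron genes −0.22 and −0.18. Single genes departed from these medians. In oe-pep 2 of 12 astrocyte genes were more than 25% higher and 0 were lower by the same fold. Of these, Gfap had an FPKM of 21.0, 22.8 and 31.4 (oe-pep ratio 1.49, 1.40 to 1.59). In oe-circ the 8 interneuron genes ranged from −0.80 to 0.81, with 2 more than 25% higher and 3 lower by the same fold. Of 8 genes of Schwann cells and peripheral myelin, 5 were measured, with a median log2 fold change of 0.10 in both comparisons. In oe-pep 2 of the 5 were more than 25% higher and 0 were lower by the same fold. In oe-circ 1 was higher and 1 was lower. Drp2 had the highest mean level of the list (FPKM 7.98, 8.57 and 7.64), whereas Pmp2 was listed at 0 reads in every library.

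Most myelin genes had their highest level in CUMS oe-pep and their lowest in CUMS oe-circ. The 41 genes together held 0.526%, 0.466% and 0.742% of the summed FPKM. Against the vehicle library, 31 of the 41 genes were more than 25% higher in oe-pep and 0 were more than 20% lower, where 15% of all measured genes were that much higher and 15.4% lower. Among the 13033 genes that averaged 1 FPKM or more, a range that holds all 41, these shares were 6.78% and 6.6%. In oe-pep 7 genes were more than 1.5-fold higher (Nkx6-2, Mbp, Mobp, Cldn11, Gjb1, Anln and Apod), where 8.49% of all measured genes and 2.1% of those averaging 1 FPKM or more were. In oe-circ, 5 of the 41 genes (Cnp, Opalin, Fa2h, Ppp1r14a and Klk6) were more than 20% lower than in the vehicle library and 0 were more than 25% higher, where 19% of all measured genes were lower and 13.6% higher. Among genes averaging 1 FPKM or more the shares were 9.35% lower and 7.45% higher. The 12.2% of the set that were lower thus lay between the backgrounds of the wider and the narrower range. Klk6 alone was more than 1.5-fold lower in oe-circ, where 11.4% of all measured genes were, and 3.76% of those averaging 1 FPKM or more. Past 2-fold there were 0 of the 41 genes in either comparison. Of all measured genes, 3.5% were higher and 6.42% lower in oe-circ, and 4.54% were higher and 4.93% lower in oe-pep. The study used this fold together with a limit on P, which was not applied here. The median log2 fold change of the 41 genes was 0.49 in oe-pep and −0.16 in oe-circ, and that of all measured genes was −0.00 in both.

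**Figure D1:**
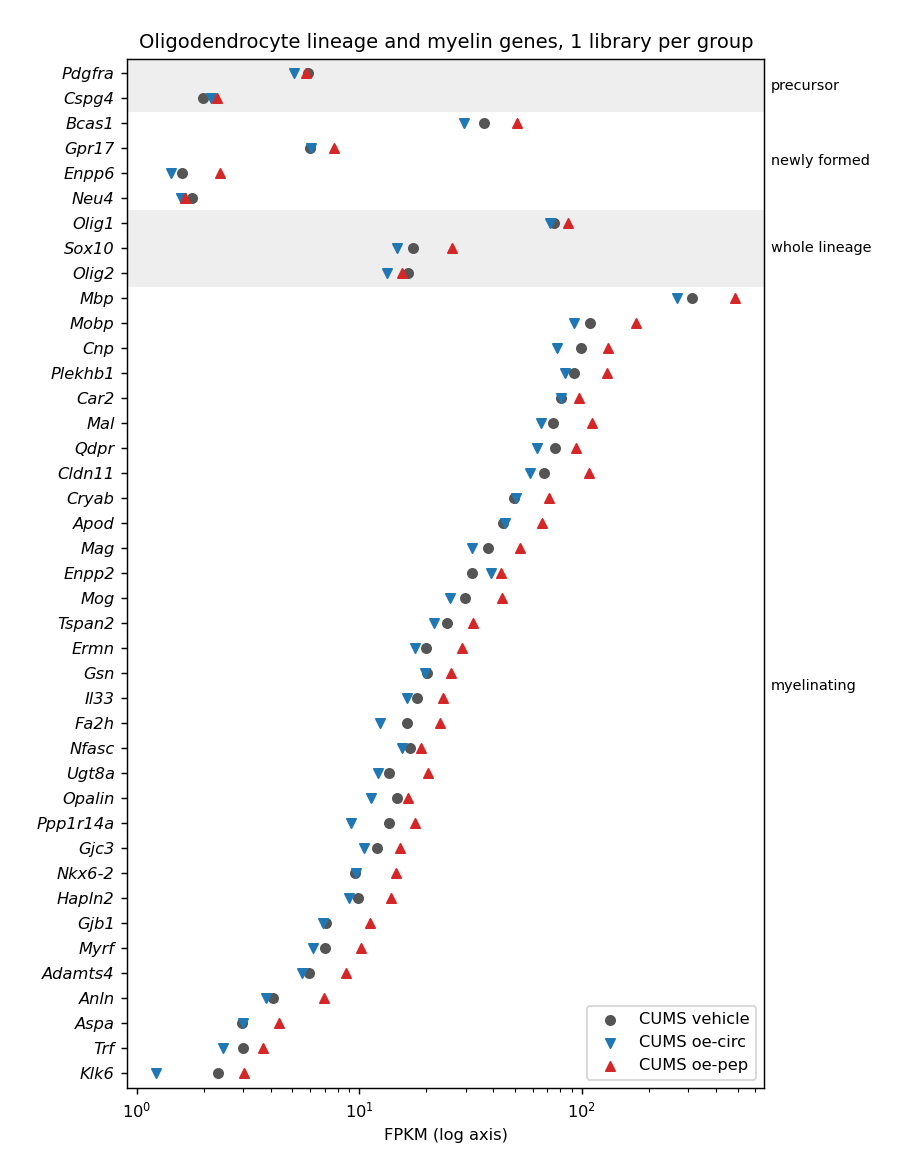
FPKM of the 41 genes (horizontal, log axis) in each library, 1 symbol per library, ordered by stage of the lineage and then by mean level. In the myelinating stage the oe-pep symbol lies to the right of both others for all 32 genes, from Klk6 at 3.04 to Mbp at 489.

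Sequences before the start sites of 3 genes are shown as examples, chosen by stage and oe-pep ratio after their values had been seen. Mobp had the highest oe-pep ratio of the sheath genes and Opalin the lowest, and Pdgfra marks the precursor stage, where the oe-pep and vehicle levels were close. The sequences are those of RefSeq (GRCm38.p6), the 250 bases before each start, 5′ to 3′ on the strand of the gene, except that Mobp is printed only up to its earlier start in the authors' table (215 bases). They lie at chr9:120149492-120149706 (plus strand) for Mobp, chr19:41077114-41077363 (minus) for Opalin and chr5:75152001-75152250 (plus) for Pdgfra. Capitals mark the letters ACAAAG or ACAATG, the core that SOX proteins bind, on either strand (read backwards, CTTTGT or CATTGT).
Mobp: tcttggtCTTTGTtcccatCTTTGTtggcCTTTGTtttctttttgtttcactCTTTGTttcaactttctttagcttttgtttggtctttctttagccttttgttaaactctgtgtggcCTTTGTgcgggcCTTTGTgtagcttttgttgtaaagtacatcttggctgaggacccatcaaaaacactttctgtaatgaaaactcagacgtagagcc
Opalin: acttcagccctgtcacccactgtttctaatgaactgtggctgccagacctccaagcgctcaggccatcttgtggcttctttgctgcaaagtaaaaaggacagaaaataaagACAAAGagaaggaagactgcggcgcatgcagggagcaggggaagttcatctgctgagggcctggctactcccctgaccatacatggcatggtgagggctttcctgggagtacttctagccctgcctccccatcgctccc
Pdgfra: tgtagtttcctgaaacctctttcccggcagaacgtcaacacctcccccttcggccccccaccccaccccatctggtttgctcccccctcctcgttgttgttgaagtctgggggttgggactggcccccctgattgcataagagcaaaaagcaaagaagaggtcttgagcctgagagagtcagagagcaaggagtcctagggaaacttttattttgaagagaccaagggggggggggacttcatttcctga
The Mobp window held 6 such matches, which do not overlap each other, the Opalin window 1 and the Pdgfra window 0. These numbers did not follow the oe-pep ratio over the set, since the windows of Anln, Cldn11, Nkx6-2 and Mal held 0 and that of Olig2 held 1. A promoter window was matched for 29 of the 41 genes, which have 41 windows, since some genes have several starts. The motif was in 15 of these windows, or 36.6%, and in 25.2% of all 32851 windows. Windows of the same gene can overlap and hold the same match, as those of Mag do, so windows are not independent. A match of letters is a description and not a binding site.

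The structural genes of the myelin sheath formed the largest group of the set. All 12 were lower in oe-circ than in the vehicle library, 2 of them by more than 20%, and all 12 were higher in oe-pep, 11 of them by more than 25% and 3 by more than 1.5-fold. Their median log2 fold change was −0.22 in oe-circ and 0.51 in oe-pep. Mbp, the myelin basic protein that holds the cytoplasmic faces of the sheath together (ENSMUSG00000041607, chromosome 18, 82475146 to 82585637, mm10), had an FPKM of 314, 269 and 489. This was 1.17-fold lower in oe-circ (interval 1.15 to 1.18) and 1.56-fold higher in oe-pep (1.54 to 1.58). Mbp alone supplied 20.3% to 23.2% of the summed FPKM of the set. Mobp, another basic protein of the compact sheath (ENSMUSG00000032517, chromosome 9, 120149707 to 120181484), had 108, 92.4 and 176, or 1.62-fold higher in oe-pep (1.58 to 1.65). The oe-pep library was the highest and the oe-circ library the lowest for both basic proteins.

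Membrane proteins of the sheath had the same order of the libraries. Cldn11, the claudin of the tight junctions between the turns of myelin, had an FPKM of 67.3, 58.3 and 107, and its oe-pep ratio was 1.59 (1.51 to 1.68). Mal, a proteolipid of myelin membrane sorting, had 74.4, 65.5 and 111 (oe-pep ratio 1.496, 1.43 to 1.56). Mog and Mag, glycoproteins of the outermost and innermost membrane, had 29.9, 25.5 and 43.6 for Mog and 37.7, 32.1 and 52.9 for Mag. The oe-circ library was 1.17-fold below the vehicle library for both, with intervals of 1.06 to 1.30 and 1.11 to 1.24. Tspan2, a tetraspanin, had 24.8, 21.6 and 32.4.

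Within the sheath group, Cnp and Opalin stood apart from Mbp and Mobp. Cnp, an enzyme that keeps cytoplasmic channels of myelin open, had an FPKM of 99.4, 77.2 and 131. It was 1.29-fold lower in oe-circ (1.24 to 1.34) and 1.31-fold higher in oe-pep (1.27 to 1.36), so that its distances below and above the vehicle library were of similar size. Opalin, a glycoprotein of oligodendrocytes (ENSMUSG00000050121, chromosome 19, 41062474 to 41077113), had 14.7, 11.3 and 16.6. It was 1.30-fold lower in oe-circ (1.13 to 1.51), and in oe-pep its ratio of 1.12 was within counting error (0.992 to 1.28). The level of Mobp relative to Opalin was 7.36 in the vehicle library and 10.6 in oe-pep, 1.44 times as high (1.27 to 1.63). Mobp and Opalin thus differed from each other in oe-pep by more than counting error. They had the highest and lowest oe-pep ratios of the sheath genes, a choice that the interval does not cover.

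In oe-pep the other genes of the sheath group lay between these. Ermn, a cytoskeletal protein of the sheath, had an FPKM of 19.99, 17.9 and 28.8. Plekhb1, a membrane-associated protein with a pleckstrin homology domain, had 92.3, 84.3 and 129, and its oe-circ value was 1.09-fold lower (1.05 to 1.14). Bcas1, which marks oligodendrocytes that are starting to myelinate, had 36.2, 29.6 and 51.0 and was 1.22-fold lower in oe-circ (1.15 to 1.30) and 1.41-fold higher in oe-pep (1.34 to 1.48).

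**Figure D2:**
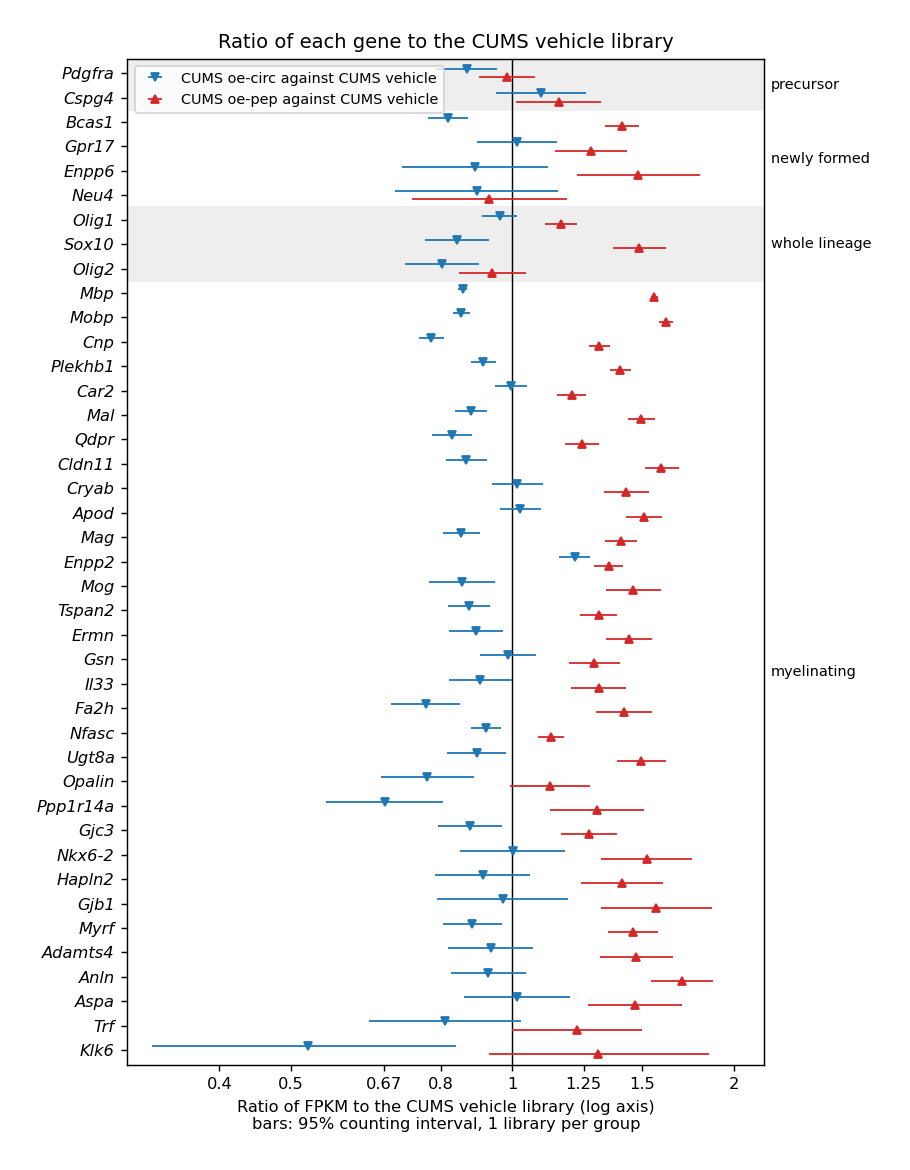
Ratio of FPKM to the CUMS vehicle library (horizontal, log axis) for the 41 genes, with exact 95% counting intervals as bars and 1 library per group, ordered as in the plot of levels. The oe-pep intervals lie wholly above 1 for 35 genes, and the oe-circ intervals wholly below 1 for 24 genes and wholly above 1 for Enpp2 alone.

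Differences beyond counting error were more common in this set than among all genes. For oe-pep the interval lay wholly above 1 in 35 of 41 genes and below 1 in 0, where the shares of all measured genes were 11.7% above and 11.7% below. For oe-circ it lay below 1 in 24 genes and above 1 in 1, where the shares of all measured genes were 12.3% below and 12.8% above. Deeply covered genes have narrow intervals, and among genes averaging 1 FPKM or more the shares were 14.8% above and 15.2% below for oe-pep and 17.7% above and 15.5% below for oe-circ. A difference beyond counting error is no difference beyond the spread between animals, which was not measured.

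Enzymes of myelin lipids were higher in oe-pep in all 3 cases. Ugt8a makes galactosylceramide, the main glycolipid of myelin, and had an FPKM of 13.5, 12.1 and 20.3 (oe-pep ratio 1.497, 1.39 to 1.62). Fa2h, which hydroxylates the fatty acids of these lipids, had 16.3, 12.5 and 23.1. Its oe-circ level was 1.31-fold lower (1.18 to 1.46), the lowest ratio of the 3 enzymes. Aspa, which splits N-acetylaspartate and so supplies acetate for lipid synthesis, had 2.97, 3.01 and 4.35, so the oe-circ and vehicle levels were indistinguishable (oe-circ ratio 1.02, 0.859 to 1.20) while oe-pep was 1.47-fold higher (1.27 to 1.70).

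Genes of gap junctions and nodes were higher in oe-pep by unequal amounts. The connexin genes Gjb1 (connexin 32) and Gjc3 (connexin 29) had 7.09, 6.88 and 11.1 for Gjb1 and 12.01, 10.5 and 15.3 for Gjc3. Their oe-pep ratios were 1.57 (1.32 to 1.87) and 1.27 (1.16 to 1.39). Hapln2, a link protein of the matrix at nodes of Ranvier, had 9.82, 8.96 and 13.9. Nfasc encodes neurofascin, whose glial isoform anchors the myelin loops beside the node and whose neuronal isoform sits in the axon, and it had 16.9, 15.5 and 19.0. Its oe-pep ratio of 1.13 (1.08 to 1.18) was among the smallest of the myelinating stage, and gene-level values cannot separate its isoforms.

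Cytoskeletal genes held the largest oe-pep ratio of the set. Anln, an actin-binding protein that stabilizes myelin septins, had an FPKM of 4.10, 3.80 and 6.96, or 1.70-fold higher in oe-pep (1.54 to 1.87). Ppp1r14a, an inhibitor of myosin phosphatase, had 13.6, 9.15 and 17.8, and was 1.49-fold lower in oe-circ (1.24 to 1.79). Gsn, the actin-severing protein gelsolin, had 20.1, 19.8 and 25.9, with an oe-circ ratio of 0.987 (0.904 to 1.08). Anln thus had the highest oe-pep ratio of the 41 genes, and Ppp1r14a the second lowest oe-circ ratio.

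Among secreted and metabolic genes of mature oligodendrocytes, all 9 were higher in oe-pep than in the vehicle library, 6 by more than 25%, and in oe-circ 3 were above and 6 below the vehicle level. Klk6, a secreted serine protease, had the lowest oe-circ ratio of all 41 genes, with an FPKM of 2.32, 1.23 and 3.04. It rested on 65, 27 and 77 reads, so its 1.89-fold lower value has a wide interval (1.19 to 3.08). Enpp2, which makes lysophosphatidic acid, was the only gene whose interval lay above 1 in oe-circ, at 32.2, 39.1 and 43.5 (oe-circ ratio 1.21, 1.16 to 1.27). Apod, a lipid-binding lipocalin, had 44.1, 45.2 and 66.5, and Cryab, a small heat shock protein, 49.7, 50.5 and 71.0. For Apod and Cryab the oe-circ and vehicle levels did not differ beyond counting error, and the oe-pep ratios were 1.51 (1.43 to 1.596) and 1.43 (1.33 to 1.53).

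Apart from Adamts4, the remaining genes of this group had smaller oe-pep ratios than Apod and Cryab. Adamts4, a protease of the extracellular matrix, had 5.92, 5.53 and 8.73 (oe-pep ratio 1.47, 1.31 to 1.65). Car2, a carbonic anhydrase, had 80.9, 80.6 and 97.5 (1.20, 1.15 to 1.26). Qdpr, which recycles tetrahydrobiopterin, had 76.0, 62.8 and 94.5, and Il33, a nuclear cytokine, 18.2, 16.5 and 23.9. The oe-pep level was the highest of the libraries in all of these. Trf, the iron carrier transferrin, had 3.01, 2.44 and 3.69, and both of its intervals reached 1. Its value is uncertain, because Gm20425, annotated on the same strand, shares 63.5% of its exon bases and was listed at 0 reads in every library.

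Genes that are also made by other cells had medians nearer to 0. Of the set, 11 genes are known from other cell types as well, namely Pdgfra, Cspg4, Nfasc, Enpp2, Apod, Il33, Cryab, Gsn, Trf, Car2 and Qdpr, a choice made after their values had been seen. Their median log2 fold change was −0.02 in oe-circ and 0.31 in oe-pep. The other 30 genes had −0.19 and 0.51, with 26 of the 30 more than 25% higher in oe-pep. Markers of meninges and fibroblasts, which make Apod and Pdgfra, were higher in oe-circ, where 8 of 10 were more than 25% higher and their summed FPKM was 18.4, 31.0 and 22.5. Their part in the values of these genes was not tested.

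The transcription factors of the lineage split in oe-pep. Sox10, which is on throughout the lineage and activates myelin genes, had an FPKM of 17.5, 14.7 and 25.97, or 1.49-fold higher in oe-pep (1.37 to 1.62). Myrf, the factor of the myelinating stage, had 7.005, 6.18 and 10.2 (1.46, 1.35 to 1.58), and Nkx6-2, a homeodomain factor of mature oligodendrocytes, 9.61, 9.62 and 14.6 (1.52, 1.32 to 1.76). The basic helix-loop-helix factors, which like Sox10 are also on in precursors, were closer to the vehicle level in oe-pep. Olig1 had 74.7, 71.7 and 86.9, with an oe-pep ratio of 1.16 (1.11 to 1.22), and Olig2 had 16.6, 13.3 and 15.6, with an oe-pep ratio of 0.94 (0.846 to 1.04). In oe-circ the ratio of Olig2 was 0.803 (0.716 to 0.901). Nkx6-2 shares 12.9% of its exon bases with Inpp5a on the opposite strand, and since the strand setting of the counting is not given, their reads may not be told apart. The level of Sox10 relative to Olig2 was 1.05, 1.11 and 1.67, and in oe-pep it was 1.58 times that of the vehicle library (1.38 to 1.81). Of Sox10, Olig1 and Olig2, Sox10 had the highest oe-pep ratio and Olig2 the lowest, a choice that the interval does not cover.

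Genes of the precursor stage were nearer to the vehicle level in oe-pep. Pdgfra, the receptor for the mitogen PDGF (ENSMUSG00000029231, chromosome 5, 75152292 to 75198215), had an FPKM of 5.87, 5.09 and 5.77. Its oe-pep ratio was 0.983 (0.901 to 1.07), and in oe-circ it was 1.15-fold lower (1.05 to 1.27). Cspg4, the NG2 proteoglycan, had 1.98, 2.17 and 2.29, with an oe-pep ratio of 1.16 (1.011 to 1.32). The level of Mobp relative to Pdgfra was 18.5 in the vehicle library, 18.2 in oe-circ and 30.4 in oe-pep. That ratio was 1.65 times the vehicle value in oe-pep (1.504 to 1.80) and 0.983 times it in oe-circ (0.891 to 1.08). Mobp and Pdgfra were thus lower in oe-circ by similar factors, while in oe-pep Mobp was higher and Pdgfra was within counting error of the vehicle library. Mobp had the highest oe-pep ratio of the sheath genes and Pdgfra a lower one than Cspg4, a choice that the intervals do not cover.

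Genes of newly formed oligodendrocytes were mixed. Gpr17, a receptor that holds cells at the premyelinating stage, had 5.99, 6.09 and 7.67 (oe-pep ratio 1.28, 1.14 to 1.43). Enpp6, a choline phosphodiesterase, had 1.601, 1.43 and 2.37 (1.48, 1.22 to 1.80). Neu4, a sialidase, had 1.77, 1.59 and 1.65, and its oe-pep ratio of 0.931 was within counting error (0.730 to 1.19). The level of Enpp6 relative to Neu4 in oe-pep was 1.59 times that in the vehicle library (1.17 to 2.18), on 128 to 255 reads. These had the highest and lowest oe-pep ratios of the 4 genes of this stage, a choice that the interval does not cover. For Enpp6 relative to Gpr17 the value was 1.16, within counting error (0.926 to 1.45). With Bcas1, 3 of the 4 genes of this stage were more than 25% higher in oe-pep.

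Other genes of each stage, outside the 41, were listed with earlier results of these data known. Their values are those of whole tissue, and their level in oligodendrocytes alone was not measured. Of 35 other myelinating genes, 21 were more than 25% higher in oe-pep and 0 more than 20% lower (median log2 fold change 0.37), and 6 were lower in oe-circ and 0 higher by the same thresholds (−0.16). Sept4, a septin, had an FPKM of 45.9, 45.8 and 61.4. The tubulin gene Tubb4a had 318, 342 and 332 and Tppp, which promotes tubulin polymerization, 108, 121 and 120, so both were lowest in the vehicle library. Of 10 other precursor genes, 0 were more than 25% higher in oe-pep and 1 was more than 20% lower (median −0.16). In oe-circ 3 of the 10 were more than 20% lower and 0 more than 25% higher (median −0.20). These were Cacng4, a calcium channel subunit, with 17.2, 10.6 and 15.3, Lhfpl3, with 8.09, 4.81 and 6.11, and C1ql1, a secreted synaptic organizer, with 7.34, 4.81 and 6.77. All 3 were lowest in oe-circ and also below the vehicle level in oe-pep, where Lhfpl3 was the gene past the threshold.
Of 13 other genes of newly formed oligodendrocytes, 12 were measured. In oe-pep 1 was more than 25% higher and 2 were more than 20% lower (median −0.11), and in oe-circ 1 was higher and 4 were lower (−0.21). The genes past a threshold were outside the naming rule and are named after their values had been seen. Tcf7l2 (0.965, 0.354 and 0.478) and Nkx2-2 (1.97, 1.20 and 1.33), both transcription factors, were lower in both overexpression libraries. Tmem163 (3.30, 2.35 and 3.21) and Zfp488 (0.842, 0.623 and 0.805) were lower in oe-circ. For Zfp488 this was within counting error (oe-circ ratio interval 0.486 to 1.11), on 39 reads in oe-circ and 67 in the vehicle library. The higher gene in both overexpression libraries was 9630013A20Rik (0.655, 1.05 and 1.28). Fyn, a kinase that acts early in myelination, had 27.8, 27.5 and 27.7, level in all 3 libraries. The count of this stage thus depends on which genes stand for it, since the 4 genes of the set had a median of 0.42 in oe-pep.

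**Figure D3:**
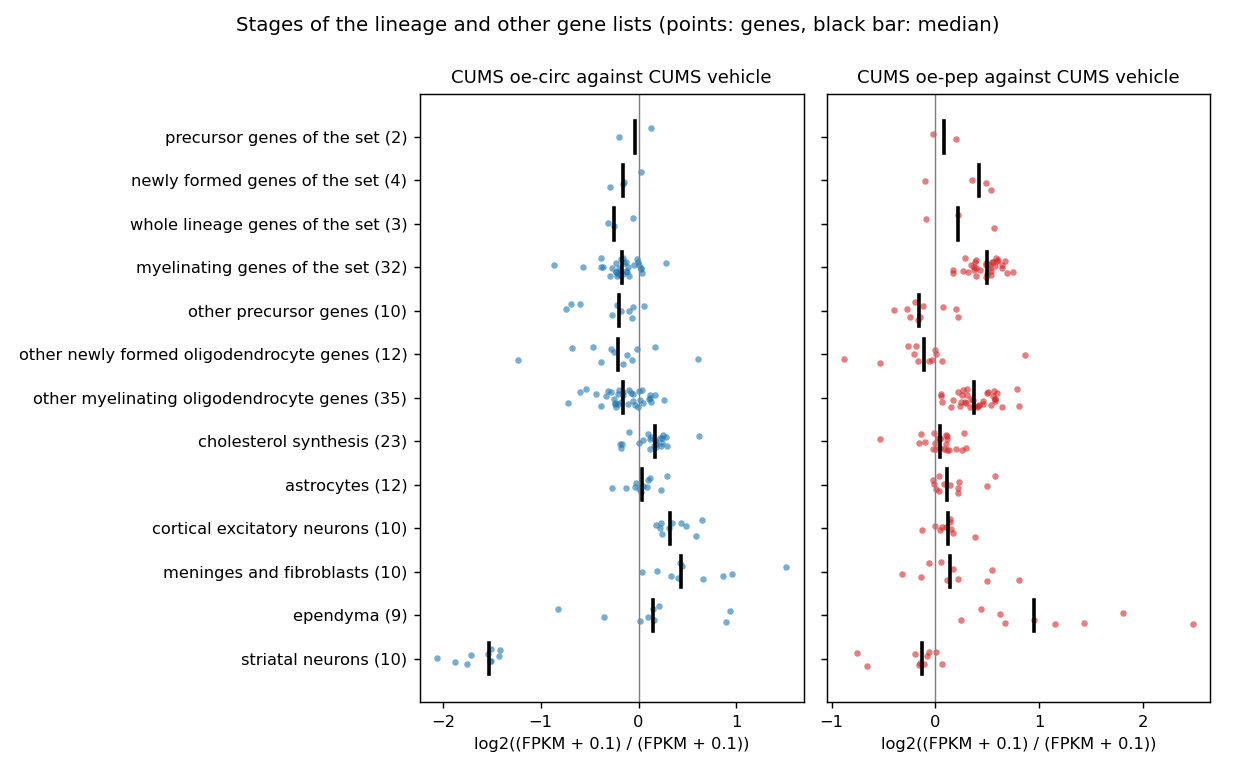
Log2 fold change against the CUMS vehicle library on the log2(FPKM + 0.1) scale, oe-circ at left and oe-pep at right, with 1 point per gene and a black bar at each list's median. In oe-pep the myelinating genes of the set (median 0.50) and the other myelinating genes (0.37) lie to the right of 0, while the other precursor genes have a median of −0.16.

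For most of the set the vehicle level lay between those of the overexpression libraries, although for some genes only within counting error. In 31 of the 41 genes the oe-circ level was the lowest and the oe-pep level the highest, an order found in 17.9% of all measured genes. Of the 31 genes, 20 had an oe-circ interval wholly below 1 and an oe-pep interval wholly above 1, as did 0.827% of all measured genes and 163 of the 13033 genes averaging 1 FPKM or more. The oe-circ interval included 1 in 9 of the 31 (Enpp6, Olig1, Gjb1, Hapln2, Anln, Gsn, Trf, Car2 and Adamts4) and the oe-pep interval in 3 (Opalin, Klk6 and Trf). The reverse order occurred in 0 of the 41 genes and in 17.5% of all measured genes. The vehicle library was the lowest for Cspg4, Gpr17, Nkx6-2, Aspa, Enpp2, Cryab and Apod, where it was the lowest in 30.1% of all measured genes, and the highest for Pdgfra, Neu4 and Olig2, where it was the highest in 32.7%. Nkx6-2 had almost equal vehicle and oe-circ levels, and under both other scalings of the libraries it joined the genes lowest in oe-circ, which then numbered 32. By stage, 27 of 32 myelinating genes had the order with oe-circ lowest and oe-pep highest. Of the precursor genes 0 of 2 had it, which are too few to compare stages. Outside the set it held in 25 of 35 other myelinating genes and 3 of 10 other precursor genes. Both comparisons use the same vehicle library, so they are not independent of each other.

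The direct comparison of the overexpression libraries does not use the vehicle library. All 41 genes were higher in oe-pep than in oe-circ, where 49.4% of all measured genes were. Of the 41, 33 were more than 25% higher and 0 more than 20% lower, where the shares of all measured genes were 19.3% and 13.8%. There were 23 more than 1.5-fold higher, where 11.3% of all measured genes were. Among genes averaging 1 FPKM or more, 10.2% were more than 25% and 3.59% more than 1.5-fold higher. The median log2 difference was 0.62, and 0.64 in the myelinating stage. Klk6 was the only gene more than 2-fold higher, at 2.48-fold (1.58 to 3.996), where 6.26% of all measured genes were. Ppp1r14a (1.94-fold, 1.63 to 2.33), Mobp (1.90-fold, 1.85 to 1.95), Fa2h (1.86-fold, 1.68 to 2.06) and Cldn11 (1.84-fold, 1.73 to 1.96) followed. At the other end were Neu4 (1.04-fold, 0.798 to 1.36), Cspg4 (1.06-fold, 0.919 to 1.21) and Enpp2 (1.11-fold, 1.06 to 1.17). Of the 41 intervals, 39 lay above 1, where 12.7% of all measured genes did, and those of Neu4 and Cspg4 did not.

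**Figure D4:**
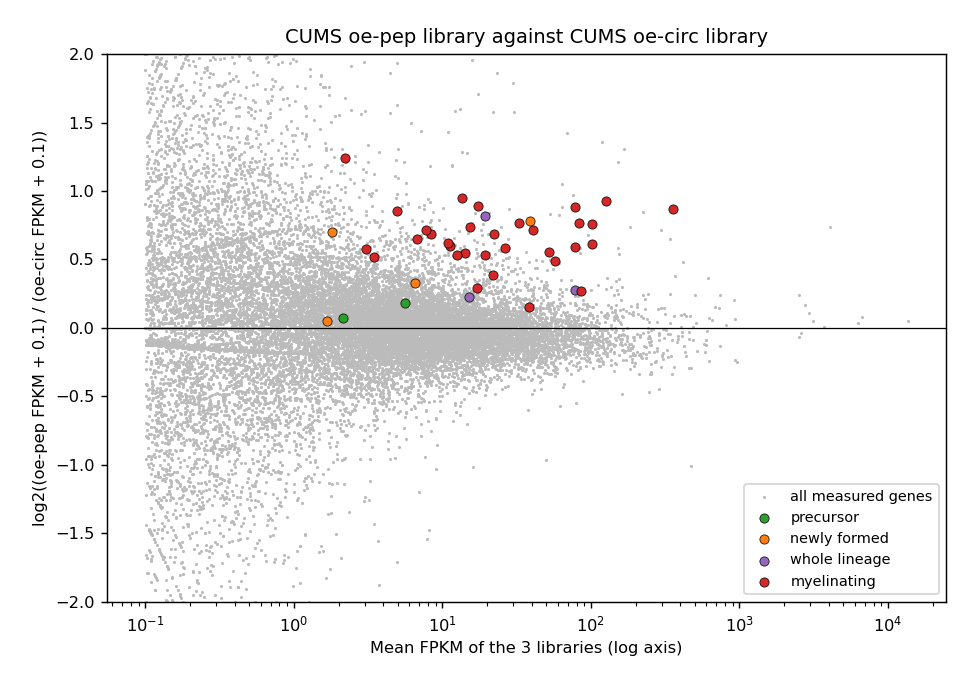
Log2 difference between the CUMS oe-pep and CUMS oe-circ libraries (vertical, log2(FPKM + 0.1) scale, axis from −2 to 2) against mean FPKM (horizontal, log axis) for all 20203 measured genes in gray and the 41 genes in color by stage. All colored points lie above 0, from Neu4 at 0.05 to Klk6 at 1.24.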

How the data were processed

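Libraries were made from PrL tissue, 3 in all and 1 per group, and the number of mice behind each is not given in the sources used here. The authors deposited FPKM values with gene lengths for 54532 genes. Per the submitters' processing notes, the tools were featureCounts 1.6.3, HISAT2 2.1.0 and cutadapt 2.5, on mm10. The kit was strand-specific, but the strand setting of the counting is not given in the sources used here. RMA and limma are named in the study's methods for expression analysis. The deposited gene lengths are in bases, and FPKM multiplied by length gave whole multiples of 1 step in each library, with a largest deviation of 7.57e-10 reads.

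Log2 fold changes were taken on log2(FPKM + 0.1) for genes that averaged 0.1 FPKM or more. No count model was applied and no P value was computed, since each group had 1 library. The fold threshold of the study is 2-fold, which it used together with a limit on P. Thresholds of 1.5-fold and of 25% (20% when lower) were added because myelin genes were known to stay within 2-fold. The genes, their stages and the other lists were chosen with earlier results of these data known. Every gene of the set was named, and of other lists at most the 4 with the highest mean FPKM, except where a count is named out or a marker is listed at 0. Ratios have exact conditional binomial (Clopper-Pearson) 95% intervals, and ratios of ratios exact conditional odds ratio intervals. PCR copies are not independent molecules, so these cover counting error only. For a gene of 1 kilobase, an FPKM of 0.0540 (vehicle), 0.0687 (oe-circ) or 0.0597 (oe-pep) is 1 read.

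All 41 gene identifiers were found in GENCODE vM21, 40 with equal coordinates. Transcripts were searched for near-identical copies with minimap2 2.31-r1302 (identity of at least 95% over at least 50%), and only Trf had one. Exons of Qdpr (18.6% of bases, with Gm42413), Cryab (17.0%, Hspb2), Nkx6-2 (12.9%, Inpp5a) and Bcas1 (11.7%, Bcas1os1) overlap genes of the opposite strand most. The steps were tested on simulated data. Calculations used scipy 1.17.1, pandas 2.3.3 and numpy 2.4.6 under Python 3.11.15, and plots matplotlib 3.10.9. Alternatives were pseudocounts of 0.01 and 1, scaling by the median ratio or without mitochondrial genes, an average of 1 FPKM or more, no filter, and the mean of a list. Leaving out Mbp or genes that other cells also express was added after seeing the data. Some genes of the other lists are not reported here by name.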

Additional observations from a re-analysis of the deposited data

How the results depend on the processing

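Of 492 values of single genes under the alternative pseudocounts and scalings, all 492 stayed within the counting intervals of their ratios. The sign differed for Nkx6-2 in oe-circ against vehicle only, at a log2 fold change of 0.0026 as reported, −0.0034 scaled by the median ratio and −0.0093 scaled without mitochondrial genes. With a pseudocount of 1, which shrinks the change of genes with low values, the number of genes more than 1.5-fold higher in oe-pep than in the vehicle library fell from 7 to 4, the number more than 1.5-fold lower in oe-circ from 1 to 0, and the number more than 2-fold higher in oe-pep than in oe-circ from 1 to 0. The counts of genes more than 25% higher or 20% lower and the medians of the set and of its myelinating genes stayed close to their values under every alternative run. The limit of 1 FPKM and the run with no filter keep every gene of the set, so they could not change these values. The scaling factors of the libraries lay between 0.995 and 1.004, so the scalings could move them only a little. Without the genes that other cells also express, the oe-circ median of the secreted and metabolic genes was −0.48 against −0.10. That value rests on Adamts4 (−0.097) and Klk6 (−0.87) alone, and Klk6 had 27 reads in oe-circ. Without Mbp, the summed FPKM of the myelinating genes was 1.40 times that of the vehicle library in oe-pep and 0.895 times in oe-circ, against 1.44 and 0.886 with it. No library could be left out, and no paired analysis was possible because each group had 1 library. Depth limits Klk6, Trf, Neu4 and Enpp6 most, with 27 to 255 reads.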

Other observations

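Genes of cholesterol synthesis, which supplies the main sterol of myelin, did not share the order of the myelin genes. Of 23 genes, 0 were more than 25% higher in the CUMS oe-pep library than in the CUMS vehicle library and 1 was more than 20% lower (Fdps, with an FPKM of 0.156 against 0.270 on 11 and 21 reads, within counting error at a ratio interval of 0.252 to 1.26), with a median log2 fold change of 0.05. In the CUMS oe-circ library 1 was higher (Ebp, 7.498 against 4.84) and 0 were lower, with a median of 0.17. Both were outside the naming rule and are named after their values had been seen. In oe-circ the counting interval lay above 1 in 14 of the 23 genes and below 1 in 2, where 12.8% and 12.3% of all measured genes did. In oe-pep it lay above 1 in 6 and below 1 in 0, where 11.7% and 11.7% did. The order with oe-circ lowest and oe-pep highest held in 1 of the 23 genes. The vehicle library was the lowest in 15 of them, where it was the lowest in 30.1% of all measured genes. Hmgcs1, which makes the precursor of mevalonate, had an FPKM of 54.7 in the vehicle library, 66.7 in oe-circ and 54.5 in oe-pep. Neurons and astrocytes also express these genes. Their level in oligodendrocytes alone was not measured.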
